A study of Mus musculus with 8 samples.

Results

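The NR4A receptors are the 3 nuclear receptors Nr4a1 (Nur77), Nr4a2 (Nurr1) and Nr4a3 (Nor1), and their transcripts were followed here in mouse quadriceps, a thigh muscle, beside the early response gene Fos. The members were taken by name from the gene column of the expression tables, and each matched a single entry, so the group holds 3 of the 43239 distinct gene names. Quadriceps came from 8 female mice aged 6 months, 4 labelled Mss51-/- (called KO below) and 4 labelled wild type (WT), with 1 RNA library each. All were kept on an equal light and dark cycle with free access to food, and the labels name no agent. The labels give neither the strain, nor the form of the deleted Mss51 allele, nor whether the deletion was confined to muscle, nor the hour at which the muscle was taken. The series title places the comparison in a study of muscle metabolism and glucose homeostasis after deletion of Mss51.

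NR4A receptors are transcription factors without an identified physiological ligand, and they act mainly through how much of them is made. They are immediate early genes, as Fos is: their transcription starts within minutes of a stimulus without new protein synthesis, and in muscle exercise and beta-adrenergic signals acting through cAMP and the factor CREB are well known inducers. Once made, they bind the element AAAGGTCA as monomers, Nr4a1 and Nr4a2 also pair with the retinoid X receptors, and in muscle they control genes of glucose, glycogen and fatty acid use. Fos is a subunit of the AP-1 transcription factor.

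The levels are FPKM, fragments per kilobase of transcript per mega (M) mapped fragments, which the authors deposited, and they correct for transcript length. Each library lists 46036 entries, and the depth, which the files do not state, was roughly estimated at 35.7 to 51.2 M fragments per library. The targeted gene went against the labels: Mss51 stood at 201 to 340 FPKM in the 4 libraries labelled KO and at 22.9 to 37.0 FPKM in the 4 libraries labelled WT (log2 difference 3.07, adjusted p = 0.000643, limma with Benjamini-Hochberg adjustment over all genes). The labels do not say which part of the gene was deleted, so the level of the whole entry does not settle the genotype, and every direction below is that of the libraries as labelled. KO1 had the highest Mss51, and leaving it out changed the number of genes called among 11878 to 125, against 6 with all 8 libraries. Summed levels of marker lists for 11 cell types overlapped between the groups in every list, though several lists leaned. All 4 erythroid genes were above 0 (median log2 difference 0.93), and all 3 tested tendon genes (median -0.61) and 4 of 5 adipocyte genes (median -0.51) were below 0. All 5 fibroblast genes (median -0.16), all 5 smooth muscle and pericyte genes (median -0.14) and all 3 tested satellite genes (median -0.03) were also below 0. Of 8 endothelial genes, 6 were above 0 (median 0.15), as were 5 of 8 macrophage genes (median 0.15). By limma, 0 marker genes in these lists were called. The summed level of muscle fibre markers was high throughout (18766 to 28237 FPKM in KO, 22221 to 28648 FPKM in WT), with the fast myosin gene Myh4 listed at 0 in every library. Single fibre markers were less even: of 6 tested, 3 were above and 3 below 0, with log2 differences from -0.28 to 3.42 and 0 called by limma.

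In the mm10 build, Nr4a1 (ENSMUSG00000023034) lies on chromosome 15 from 101260170 to 101274792, Nr4a2 (ENSMUSG00000026826) on chromosome 2 from 57106830 to 57124003, and Nr4a3 (ENSMUSG00000028341) on chromosome 4 from 48045153 to 48086579. Fos (ENSMUSG00000021250) lies on chromosome 12 from 85473890 to 85477316. No other annotated gene overlaps any of these loci. The strand setting of the counting is not stated, and its effect on the levels was not tested. The stretches before the annotated RefSeq starts (GRCm38.p6, the same sequence as mm10) are shown for the 3 receptors and Fos. Whether these sequences bear on the levels in the libraries was not tested. They are read 5′ to 3′ on the gene's strand, and capitals mark TGACG or its reverse complement CGTCA, the short core of the element that CREB binds. Nr4a1 is shown at chr15:101266596-101266845 on the plus strand, which lies inside the long locus and before its RefSeq start, Nr4a2 at chr2:57124004-57124253 on the minus strand and Fos at chr12:85473640-85473889 on the plus strand. For Nr4a3 the shown part is chr4:48045055-48045152 on the plus strand, the bases before the first annotated exon.
Nr4a1: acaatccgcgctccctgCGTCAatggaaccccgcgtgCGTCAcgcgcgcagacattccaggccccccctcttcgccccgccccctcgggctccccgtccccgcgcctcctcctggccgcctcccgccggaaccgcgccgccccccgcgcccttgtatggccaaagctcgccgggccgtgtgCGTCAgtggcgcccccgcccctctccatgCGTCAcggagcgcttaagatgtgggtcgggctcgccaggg
Nr4a2: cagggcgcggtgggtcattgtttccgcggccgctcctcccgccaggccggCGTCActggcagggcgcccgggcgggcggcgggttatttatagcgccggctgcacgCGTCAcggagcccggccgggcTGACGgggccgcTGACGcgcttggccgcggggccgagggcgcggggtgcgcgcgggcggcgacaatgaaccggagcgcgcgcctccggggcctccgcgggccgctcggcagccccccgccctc
Nr4a3: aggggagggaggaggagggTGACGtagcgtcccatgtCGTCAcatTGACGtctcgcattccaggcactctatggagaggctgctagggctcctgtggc
Fos: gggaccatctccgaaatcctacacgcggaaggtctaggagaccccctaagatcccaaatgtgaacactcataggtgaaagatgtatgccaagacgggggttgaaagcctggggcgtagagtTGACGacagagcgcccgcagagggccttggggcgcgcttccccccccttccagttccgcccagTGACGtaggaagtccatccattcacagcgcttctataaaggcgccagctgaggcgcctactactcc
Over the 250 bases before the start, each receptor holds 4 copies of TGACG on either strand and Fos holds 2. For Nr4a3, 3 of the 4 copies are in the part shown. Nr4a3 has 3 copies close together, at -231, -213 and -205 bases from the start, and Nr4a2 has a pair at -123 and -111. Of 32851 RefSeq promoters of the same length, 0.137% hold 4 or more copies, 3.9% hold 2 or more and 17.8% hold at least 1. Among the 10211 with a GC content within the range of these 4 genes (58.4% to 80%), 0.353% hold 4 or more and 7.43% hold 2 or more. The full palindrome TGACGTCA, which contains TGACG, was found in none of the 4 windows and in 1.55% of all promoters. AAAGGTCA, the receptors' own element, was also in none of the 4 windows (1.34% of all promoters, both strands). TATAAA was found once each in Nr4a2 and Fos, on either strand, as in 12.4% of all promoters that hold it at least once. Of the 26 early response genes, Fos included, with a promoter in the table, 14 hold at least 1 copy of TGACG in any listed promoter, 8 at least 2 and 0 hold 4. The 32851 promoters belong to 27025 genes, so these counts of genes and the shares of promoters above are in unlike units. These matches describe letters, not bound sites.

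Nr4a1 was by far the main receptor of the family in quadriceps. It made up 96.2% to 97.9% of the summed FPKM of the 3 receptors in KO libraries and 93.1% to 96.8% in WT libraries. Nr4a3 came next and Nr4a2 last in every one of the 8 libraries. Among 49 nuclear receptor genes in the tables, Nr4a1 ranked 1 by mean FPKM over the 8 libraries, ahead of the clock repressor Nr1d1 (Rev-erb alpha). The lead over Nr1d1 did not exceed the spread: Nr4a1 averaged 92.8 ± 26.4 FPKM in KO and 139 ± 60.1 FPKM in WT, and Nr1d1 averaged 84.4 ± 26.7 FPKM in KO and 71.6 ± 12.8 FPKM in WT (SD, n = 4 each), with overlapping ranges in both groups. Nr4a3 ranked 29, between Esrrb, an oestrogen-related receptor (2.07 to 7.18 FPKM in KO, 2.07 to 3.91 FPKM in WT), and the orphan receptor Nr2c1 (3.15 to 4.45 FPKM in KO, 3.42 to 3.94 FPKM in WT). In KO libraries all Nr4a3 levels lay below those of Nr2c1, whereas in WT libraries the ranges of Nr4a3 and Nr2c1 overlapped. Nr4a2 ranked 31, between Nr2c1 and Nr6a1, another orphan receptor whose entry is joined with its antisense gene, and its range overlapped that of Nr6a1 in both groups.

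**Figure D1:**
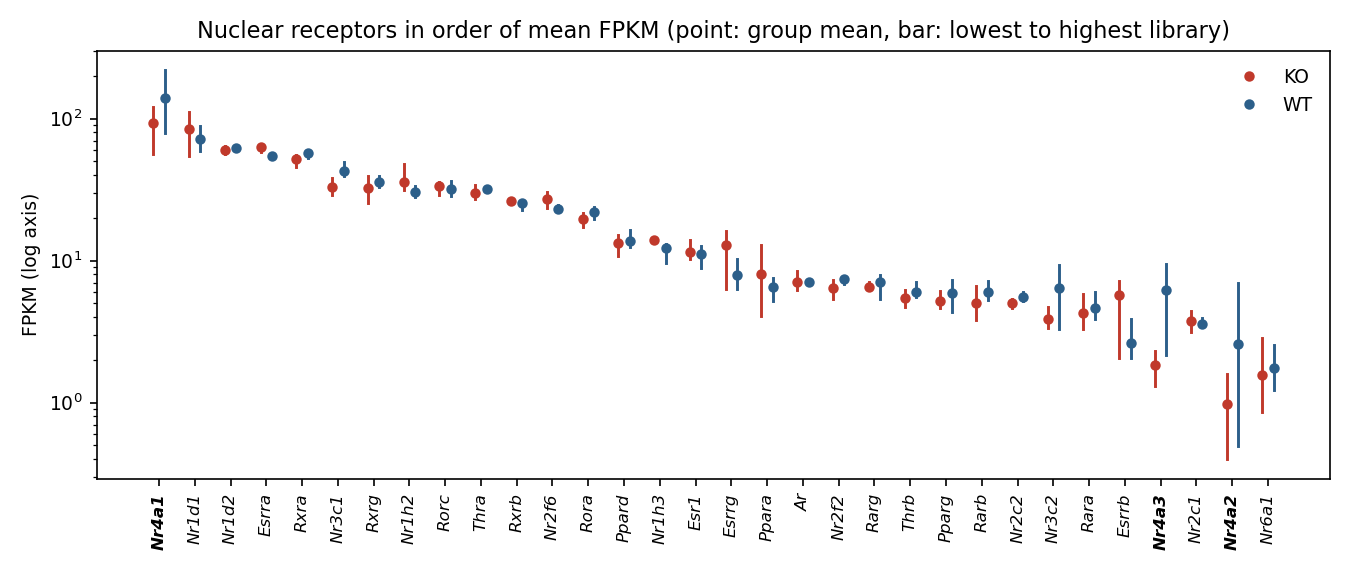
Levels of the 32 tested nuclear receptor genes in order of mean FPKM (log axis), KO in red left of WT in blue. Points are means of 4 libraries and bars run from the lowest to the highest library. Nr4a1 stands first, Nr4a3 and Nr4a2 stand near the end, and the WT bars of Nr4a2 and Nr4a3 are among the longest in the plot.

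Nr4a3, the receptor with the largest difference in the family, averaged 1.84 ± 0.448 FPKM in KO and 6.20 ± 3.20 FPKM in WT (SD, n = 4 each). Its levels were 1.66, 1.299, 2.30 and 2.09 FPKM in KO1 to KO4, and 9.40, 2.15, 8.0 and 5.25 FPKM in WT1 to WT4. All KO libraries were low, and 3 of the 4 WT libraries stood above every KO library. WT2 fell within the KO range, so the groups overlapped by that library. The log2 difference on the log2(FPKM + 0.5) scale was -1.38 ± 0.38 (SE), with a 95% interval of -2.24 to -0.52 that excludes 0. This corresponds to a KO level of 0.385 times that of WT. The unadjusted p was 0.00562, the adjusted p over 11878 genes was 0.347 (limma, two-sided), and the exact permutation test over the 70 assignments of the libraries gave p = 0.0571. Nr4a3 therefore did not pass the adjusted threshold of 0.05. As background, 2.76% of all tested genes had an unadjusted p under 0.05 with a lower level in KO and 7.5% with a higher level in KO, and 0% were called lower after adjustment. Without WT2 the difference was -1.77 (adjusted p = 0.0900, limma), and over the leave-one-out fits the adjusted p ranged to 0.662.

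Nr4a1 averaged 92.8 FPKM in KO and 139 FPKM in WT, and its difference was within the spread of the libraries. Its levels were 96.2, 56.7, 98.1 and 120 FPKM in KO1 to KO4, and 220, 79.6, 145 and 111 FPKM in WT1 to WT4. KO2 was the lowest and WT1 the highest of the 8, and the other 6 libraries of both groups interleaved. The log2 difference was -0.53 ± 0.32 (SE; 95% interval -1.26 to 0.20; adjusted p = 0.616, limma; exact permutation p = 0.286). It was -0.28 without WT1 and -0.31 without KO2.

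Nr4a2, best known for its part in dopaminergic neurons, averaged 0.985 ± 0.575 FPKM in KO and 2.60 ± 2.99 FPKM in WT (SD, n = 4 each). Its levels were 0.400, 0.600, 1.59 and 1.35 FPKM in KO1 to KO4, and 6.92, 0.497, 2.29 and 0.713 FPKM in WT1 to WT4. WT1 alone stood far above the rest, and WT2 and WT4 lay inside the KO range. The log2 difference was -0.68 ± 0.61 (SE; 95% interval -2.06 to 0.70; adjusted p = 0.749, limma; exact permutation p = 0.429). It was -0.10 without WT1 and -1.07 without WT2. The interval reaches from 0.240 times to 1.63 times the WT level, so these 8 libraries set no narrow limit on Nr4a2. Taken on the longest annotated transcript, the levels rest on roughly 71 to 958 fragments per library for Nr4a2, 265 to 2301 for Nr4a3, 331 to 1301 for Fos and 5172 to 21748 for Nr4a1, by the rough depth estimate.

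Fos averaged 4.47 ± 0.575 FPKM in KO and 10.5 ± 3.57 FPKM in WT (SD, n = 4 each). Its levels were 3.93, 4.40, 4.26 and 5.28 FPKM in KO1 to KO4, and 13.6, 10.9, 5.40 and 12.1 FPKM in WT1 to WT4. The groups did not overlap, though WT3 came within a small margin of KO4. The log2 difference was -1.08 ± 0.25 (SE; 95% interval -1.64 to -0.51), or 0.474 times the WT level. Its unadjusted p was 0.00205 and its adjusted p 0.336 (limma), and the exact permutation p of 0.0286 is the smallest this design can give. Of all tested genes, 1.61% (191 genes, Fos included) were lower in KO with no overlap between the groups, and 3.89% were higher. Without WT3, the WT library with the lowest Fos, the difference was -1.35 and passed the threshold (adjusted p = 0.0158, limma).

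**Figure D2:**
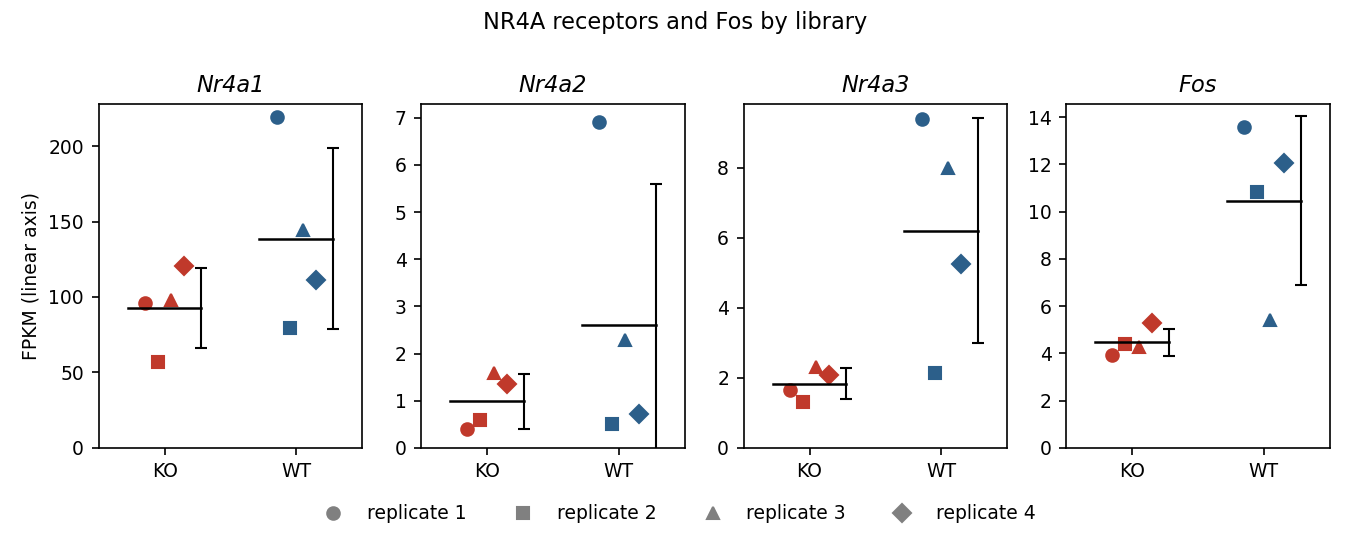
FPKM of Nr4a1, Nr4a2, Nr4a3 and Fos in each library (linear axes of different range), KO in red left of WT in blue. Each marker is 1 library with its shape giving the replicate number, the horizontal line is the group mean and the bar is ± 1 SD, which for Nr4a2 in WT reaches below the axis. KO libraries of Nr4a3 and Fos lie close together, whereas WT1 is the highest library in all 4 panels.

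The call on Nr4a3 and Fos depended on the scaling. Rescaling each library to an equal sum over named genes (TPM) moved the median of all tested genes by -0.19 on the log2 scale. The log2 difference of Nr4a3 was then -1.56 and that of Fos -1.28, and both passed the threshold (adjusted p = 0.00233 and 0.0429, limma). Relative to the median of all genes, the difference of Nr4a3 was -1.38 under TPM and -1.40 with the FPKM as deposited. That sum is dominated in KO4 by a single entry, Atg7, listed at 921731 FPKM there and at 0 elsewhere, and in WT3 by Gm22953 at 469610 FPKM. With those entries left out of the sum, a setting added after seeing the data that moved the median of all genes by -0.11, Nr4a3 was at -1.48 (adjusted p = 0.296, limma) and Fos at -1.19 (adjusted p = 0.280, limma), and neither passed.

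A ratio between receptors in the same library is free of any scaling of that library. The log2 ratio of Nr4a3 to Nr4a1 was -5.86, -5.45, -5.41 and -5.85 in KO1 to KO4, and -4.55, -5.21, -4.18 and -4.40 in WT1 to WT4. Every KO ratio lay below every WT ratio, and Nr4a3 made up 1.69% to 2.26% of the summed family FPKM in KO and 2.61% to 5.16% in WT. The difference in mean log2 ratio was -1.06 (exact permutation p = 0.0286, the smallest possible). The ratio was chosen after the levels had been seen, and over the 3 ratios between receptors its adjusted p was 0.0857. The ratio of Nr4a2 to Nr4a1 differed by -0.33 (exact permutation p = 0.686) and that of Nr4a3 to Nr4a2 by -0.73 (exact permutation p = 0.343), with overlapping groups in both.

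**Figure D3:**
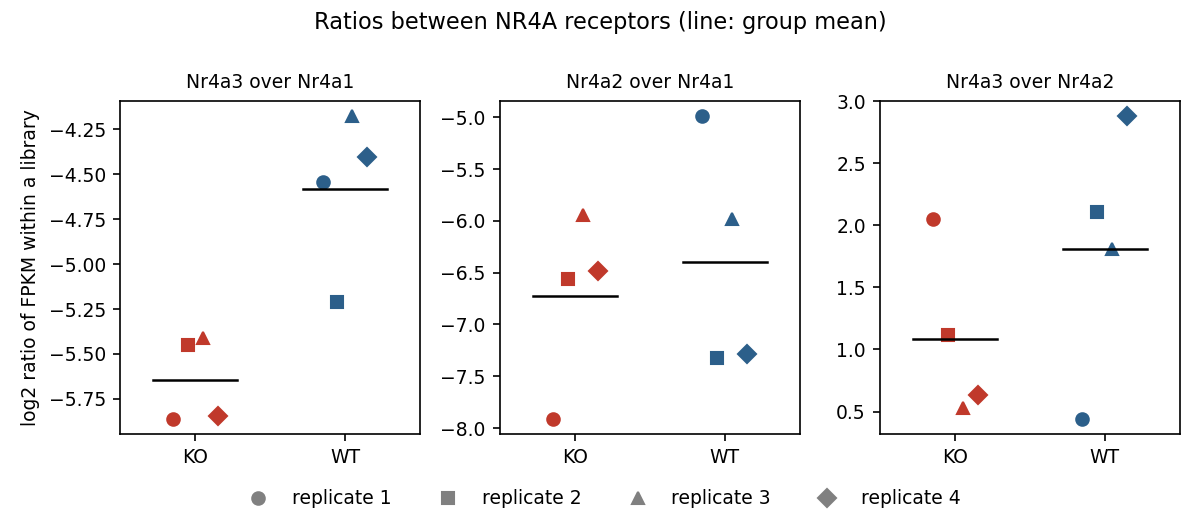
Log2 ratio of FPKM between receptors within each library, KO in red left of WT in blue, with lines at the group means and marker shapes giving the replicate number. The groups are separate for Nr4a3 over Nr4a1, where KO lies between -5.86 and -5.41 and WT between -5.21 and -4.18, and they overlap for the other two ratios.

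The WT libraries varied more than the KO libraries in all 4 genes. The SD of log2(FPKM + 0.5) was 0.29 in KO and 0.85 in WT for Nr4a3. It was 0.58 in KO and 1.32 in WT for Nr4a2, 0.46 in KO and 0.62 in WT for Nr4a1, and 0.16 in KO and 0.56 in WT for Fos. In WT, the share of tested genes with a smaller SD was 98.2% for Nr4a3, 98.9% for Nr4a2, 96.5% for Nr4a1 and 95.7% for Fos. From the lowest to the highest of the 8 libraries, Nr4a2 spanned 17.3-fold, Nr4a3 7.24-fold, Nr4a1 3.87-fold and Fos 3.46-fold. The difference in spread between the groups was not tested.

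The 3 receptors ordered the libraries alike. WT1 was the highest and WT3 the second highest library for each of them, and WT2 was the lowest WT library for each. Over the 8 libraries, Pearson's r of log2(FPKM + 0.5) was 0.855 for Nr4a1 with Nr4a3 (Spearman's rho 0.810), 0.855 for Nr4a1 with Nr4a2 (rho 0.833) and 0.767 for Nr4a2 with Nr4a3 (rho 0.786). Their exact permutation p for r was 0.00216, 0.00660 and 0.0207, and 0.0129, 0.0198 and 0.0414 after adjustment over the 6 relations examined. The exact permutation p for rho was 0.0559 after adjustment for each pair. With each gene centred on its group mean, r was 0.869, 0.834 and 0.838 (exact permutation p adjusted 0.0521, 0.0938 and 0.111), so the likeness was as large within the groups as across them. Without WT1 and WT3, the 2 libraries farthest from the median of the second gene named in each pair, r was 0.602, 0.459 and 0.157. The relations therefore rest on those 2 libraries. Those libraries also had the 2 highest summed levels among WT libraries of the tendon (77.8 FPKM in WT1, 96.3 FPKM in WT3; 46.7 and 64.1 FPKM in WT2 and WT4), fibroblast and neutrophil marker lists, 3 of the 11 lists. The fibroblast sums differed little, at 729 to 800 FPKM over the WT libraries. WT1 and WT3 also had the 2 lowest muscle fibre sums among WT libraries, at 23271 and 22221 FPKM, against 28648 FPKM in WT2 and 25104 FPKM in WT4. KO4 had higher fibroblast (824 FPKM) and neutrophil (64.2 FPKM) sums and a lower muscle fibre sum (18766 FPKM) than any WT library. Its tendon sum, 82.4 FPKM, lay between those of WT1 and WT3. KO4 ranked 3, 4 and 6 of the 8 libraries for Nr4a1, Nr4a2 and Nr4a3. In bulk tissue, more cells of a type and more RNA per cell cannot be told apart, and the part of these cell types in the receptor levels was not tested.

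Fos ordered the libraries differently. WT1 was again the highest, but WT3, second for every receptor, was the lowest WT library for Fos, and WT2, the lowest WT library for every receptor, ranked 3 of all 8 for Fos. Pearson's r with Fos over the 8 libraries was 0.603 for Nr4a3 (rho 0.714), 0.456 for Nr4a1 (rho 0.524) and 0.354 for Nr4a2 (rho 0.452). None passed the threshold (exact permutation p for r 0.115, 0.270 and 0.420, adjusted 0.172, 0.324 and 0.420; adjusted for rho 0.0864, 0.236 and 0.267). With the genes centred on their group means, r with Fos was -0.14 for Nr4a3, 0.10 for Nr4a1 and 0.11 for Nr4a2, so within the groups little relation to Fos was seen. Leaving out WT1 alone gave an r with Fos of 0.395 for Nr4a3, 0.085 for Nr4a1 and -0.25 for Nr4a2. Without WT1 and WT4, the 2 libraries farthest from the median of Fos, r was 0.133, -0.064 and -0.18. Without WT1 and WT3, the 2 libraries left out for the receptor pairs, r with Fos was 0.736 for Nr4a3, 0.179 for Nr4a1 and -0.24 for Nr4a2. Leaving out WT3 alone gave 0.813 for Nr4a3, past the threshold (exact permutation p adjusted 0.0315), 0.536 for Nr4a1 and 0.417 for Nr4a2. Within the 4 libraries of a single group, n is too small for a correlation of its own.

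**Figure D4:**
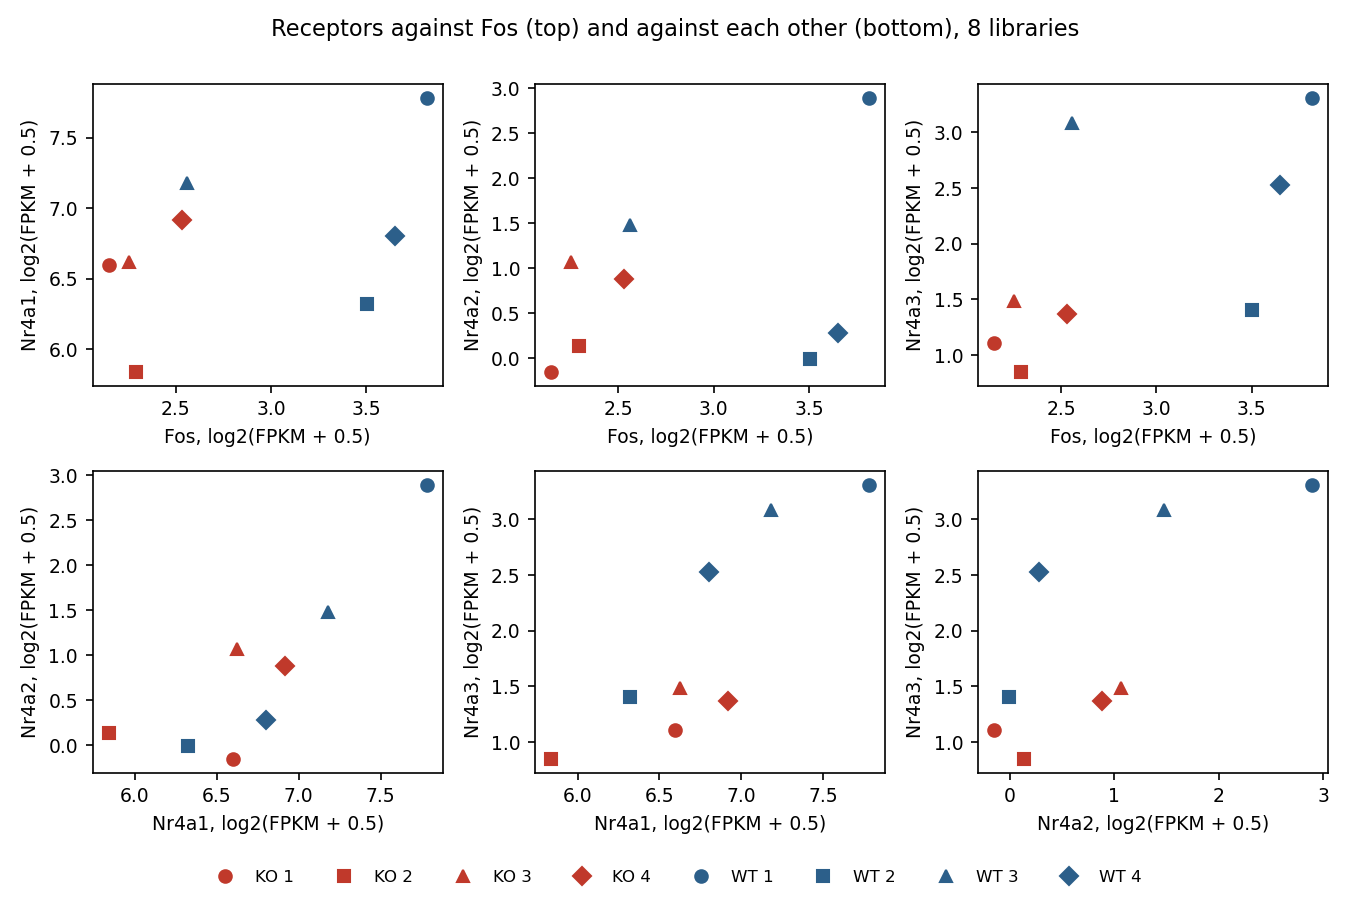
The receptors against Fos (top row) and against each other (bottom row) in the 8 libraries, both axes log2(FPKM + 0.5), KO in red and WT in blue, with marker shapes giving the replicate number. In the bottom row the libraries run from low to high together with WT1 at the top right. In the top row WT2 and WT4 are high for Fos and lie low or in the middle for Nr4a1 and Nr4a2, and WT3 has the reverse position.

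By their pattern over the 8 libraries, the tested genes most like Nr4a1 were Slc12a2, Papd5, Nup50, Jade1 and Rnf144b (Pearson's r 0.972 to 0.958). Those most like Nr4a2 were Coq10b, the joined entry of D130017N08Rik and RP23-151C5.2, Midn, the joined entry of Edc4 and Nrn1l, and Tnpo2 (r 0.980 to 0.957). Those most like Nr4a3 were Gapdh, Gm12070, Rbm27, Ntrk2 and Rnf150 (r 0.982 to 0.939). No gene was in more than 1 of these 3 sets of 5. In the order of likeness to Nr4a1, Nr4a3 was 143rd, Nr4a2 147th and Fos 2238th among all tested genes. These r values describe 8 libraries and carry no test.

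Fos and the other early response genes leaned the same way as the receptors without passing the threshold. Of 36 genes on the list, all were in the tables and 30 reached the mean of 1 FPKM needed for testing. The log2 difference was below 0 in 28 of the 30 and above 0 in 2 (Ier3 at 0.23 and Nfil3 at 0.05), with a median of -0.32, whereas 5414 of all 11878 tested genes were below 0 and their median was 0.02. By limma, 0 of the 30 were called (0.0505% of all tested genes were called, all higher in KO). An unadjusted p under 0.05 was reached by 6, all lower in KO, namely Fos, Atf3, Socs3, Ier2, Egr1 and Cyr61. At that unadjusted threshold, 2.76% of all tested genes were lower in KO and 7.5% higher. The list and its members were chosen with results of these libraries known, so the count is a description. Several lists of cell type markers leaned the same way. All 5 fibroblast genes, all 5 smooth muscle and pericyte genes, all 3 tested tendon genes and all 3 tested satellite genes were below 0. Of the fat markers, 3 of 5 (Lep, Plin1 and Adipoq) were lower in KO at an unadjusted p under 0.05 by limma. The summed level of the fat markers was 259 to 407 FPKM in KO and 294 to 398 FPKM in WT. In contrast, 6 of 8 endothelial and 5 of 8 macrophage genes were above 0. Erythroid markers leaned the other way, with a summed level of 530 to 2463 FPKM in KO and 411 to 1011 FPKM in WT. The part of these cells in the receptor and early response levels was not tested.

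Of all tested genes, 1.61% were lower in KO with no overlap between the groups, and 3.89% were higher. Among the 30 tested early response genes, Atf3 and Socs3 had groups that did not overlap, as Fos had. So did Egr3, which was below the mean needed for testing, at 0.200 to 0.367 FPKM in KO and 0.391 to 0.910 FPKM in WT. Atf3, a stress-induced transcription factor, had 2.40, 2.71, 3.30 and 3.12 FPKM in KO1 to KO4, and 5.27, 3.51, 5.18 and 6.07 FPKM in WT1 to WT4 (log2 difference -0.69, adjusted p = 0.336, limma). Socs3, an inhibitor of cytokine signalling, averaged 2.54 ± 0.315 FPKM in KO and 3.43 ± 0.277 FPKM in WT (SD, n = 4 each; log2 difference -0.37, adjusted p = 0.353, limma). Egr1, a zinc finger factor often induced with Fos, had 3.39, 6.58, 3.32 and 4.88 FPKM in KO1 to KO4, and 11.0, 21.5, 4.34 and 19.8 FPKM in WT1 to WT4. Its WT libraries followed the order of Fos in having WT3 lowest, and its log2 difference was -1.36 (adjusted p = 0.374, limma). Under the TPM scaling Egr1 and Fos passed the threshold, Egr1 at -1.57 (adjusted p = 0.00229, limma).

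The early response genes did not all order the WT libraries alike. WT1 and WT3 were the highest pair of WT libraries for 12 of the 30, as for each receptor: Fosl2, Jund, Btg2, Klf2, Klf4, Klf6, Klf10, Nfil3, Csrnp1, Sik1, Rhob and Errfi1. Sik1, a kinase induced by cAMP that restrains CREB coactivators, had 2.28, 4.52, 7.85 and 10.8 FPKM in KO1 to KO4, and 21.2, 4.03, 13.5 and 4.66 FPKM in WT1 to WT4, which places the libraries much as Nr4a2 does. Btg2, an antiproliferative gene, averaged 12.3 ± 3.70 FPKM in KO and 22.2 ± 11.9 FPKM in WT (SD, n = 4 each; log2 difference -0.74, adjusted p = 0.502, limma). WT3 was the lowest WT library for 9 of the 30, as for Fos: Fos itself, Jun, Egr1, Ier2, Ier3, Myc, Dusp1, Cyr61 and Gadd45b. The remaining 9 genes had neither order. As for each receptor, WT2 was the lowest WT library for 16 of the 30 and WT1 the highest for 15. The shares of these orders among all tested genes were not counted, so the counts do not set these genes apart. These orders are read from 4 libraries and were not tested.

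**Figure D5:**
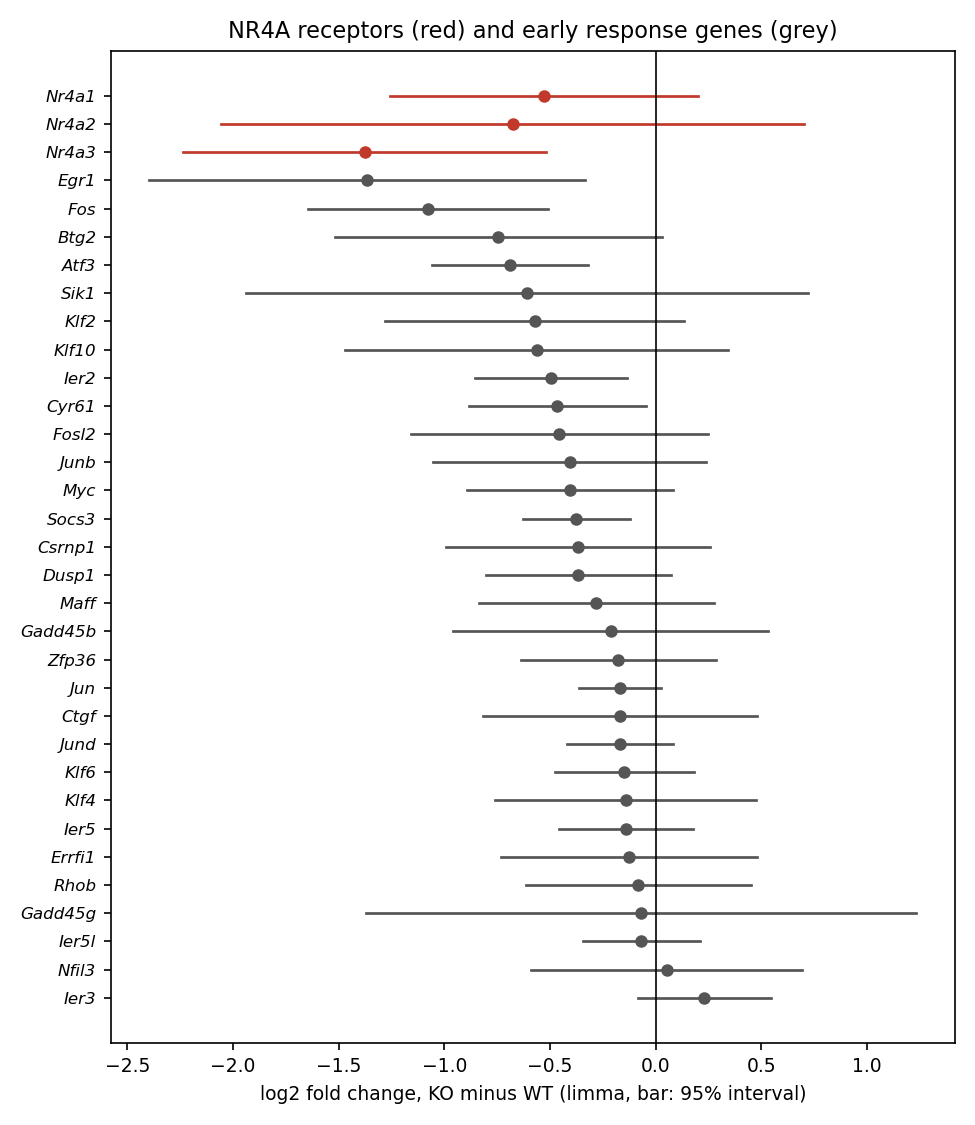
Log2 difference, KO minus WT, of the 3 NR4A receptors (red) and the 30 tested early response genes (grey), with 95% intervals from limma that are not adjusted for the number of genes. All 3 receptors and 28 of the 30 early response genes lie left of 0, and most intervals cross it.

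Upstream pathways of the receptors were set beside them. Of 30 tested genes of the beta-adrenergic and cAMP pathway, 13 were above and 17 below 0, with a median log2 difference of -0.04 and 0 called by limma (45.6% of all tested genes were below 0). The member with the smallest p was Pde7a, a phosphodiesterase that breaks down cAMP, at 21.1 ± 2.2 FPKM in KO and 29.0 ± 2.91 FPKM in WT (SD, n = 4 each), with no overlap between the groups and a log2 difference of -0.45 (adjusted p = 0.336, limma). Ep300, a coactivator of CREB, differed by -0.26 (adjusted p = 0.353, limma), again with no overlap. These were 2 of the 30, against 1.61% of all tested genes that were lower in KO with no overlap. Adcy2, an adenylyl cyclase that makes cAMP, differed by 0.61 (adjusted p = 0.437, limma). Without KO1 Adcy2 passed the threshold at 0.85 (adjusted p = 0.0398, limma).

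Calcium acting through calcineurin, CaM kinase and MEF2 is another known route to Nr4a1. Of 22 tested genes of this pathway, 7 were above and 15 below 0 (68.2% below), with a median of -0.14, against 0.02 for all tested genes, and 0 called by limma. Its smallest p values belonged to Nfatc3, a factor activated by calcineurin (log2 difference -0.18), Mef2a, a muscle transcription factor (-0.21), and Camk2a, a calcium-dependent kinase (-0.29), with adjusted p of 0.440, 0.483 and 0.486 (limma). Mef2a averaged 36.0 ± 2.21 FPKM in KO and 41.8 ± 4.70 FPKM in WT (SD, n = 4 each), and the groups overlapped.

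Partners and coregulators of the receptors were split evenly, 8 above and 8 below 0 of 16 tested, with a median of -0.02 and 0 called by limma. The corepressor Ncor1 differed by -0.18 and the heterodimer partner Rxra by -0.13, neither past the threshold (adjusted p = 0.563 and 0.611, limma). Rxra stood at 45.3 to 55.4 FPKM in KO and 53.2 to 59.0 FPKM in WT, against 0.400 to 1.59 FPKM in KO and 0.497 to 6.92 FPKM in WT for Nr4a2.

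Genes reported by earlier work to respond to Nr4a1 or Nr4a3 in muscle cells did not follow the receptors in a single direction. Of 27 tested, 11 were above and 16 below 0, with a median of -0.06 and 0 called by limma. Phka1, a regulatory subunit of glycogen phosphorylase kinase, averaged 118 ± 19.97 FPKM in KO and 155 ± 12.7 FPKM in WT (SD, n = 4 each; log2 difference -0.41, adjusted p = 0.347, limma). Pygm, the muscle glycogen phosphorylase, averaged 2051 ± 256 FPKM in KO and 2554 ± 84.2 FPKM in WT (SD, n = 4 each; log2 difference -0.32, adjusted p = 0.357, limma). Its groups did not overlap, as held for 1.61% of all tested genes with the lower level in KO. Lpl, the lipoprotein lipase, ran the other way, at 142, 252, 294 and 301 FPKM in KO1 to KO4, and 137, 108, 155 and 156 FPKM in WT1 to WT4 (log2 difference 0.79, adjusted p = 0.353, limma). Only KO1 of the KO libraries lay within the WT range for Lpl. Without KO1, Lpl passed the threshold at 1.03 and Phka1 at -0.52 (adjusted p = 0.0180 and 0.0266, limma). Slc2a4, the insulin-regulated glucose transporter, averaged 432 ± 32.2 FPKM in KO and 400 ± 39.1 FPKM in WT (SD, n = 4 each; log2 difference 0.11, adjusted p = 0.726, limma). The coactivator Ppargc1a differed by -0.01 (adjusted p = 0.995, limma).

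Among the 32 tested nuclear receptor genes, 13 were above and 19 below 0, with a median of -0.09 and 0 called by limma. Nr4a3 had the smallest p of them. The glucocorticoid receptor Nr3c1 averaged 33.1 ± 3.89 FPKM in KO and 42.7 ± 4.60 FPKM in WT, and Esrra, a regulator of mitochondrial genes, averaged 63.4 ± 3.31 FPKM in KO and 54.6 ± 2.196 FPKM in WT (SD, n = 4 each). Their log2 differences were -0.36 and 0.21 (adjusted p = 0.347 and 0.353, limma), and in both the groups did not overlap. Of the 32, these included, 2 were higher and 1 lower in KO with no overlap, against 3.89% and 1.61% of all tested genes.

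Because early response genes and Nr1d1 vary through the day and the hour of dissection is not given, clock genes are set beside the receptors. Of 15 tested, 2 were above and 13 below 0, with a median of -0.13 and 0 called by limma. Cry2, a repressor of the clock, differed by -0.31 (adjusted p = 0.479, limma), and the repressors Bhlhe41 and Bhlhe40 by -0.38 and -0.23 (adjusted p = 0.567 and 0.665, limma). WT1 had the highest level of Bhlhe41 and Bhlhe40 (25.7 and 87.3 FPKM), as it had of all 3 receptors and Fos, but not of Cry2, which stood at 14.7 FPKM in WT1 and 18.4 FPKM in WT2. Whether the time of day differed between mice was not tested.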

How the data were processed

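RNA of quadriceps from 8 mice was sequenced, and for each library a table of FPKM per gene entry was deposited by the authors, per the file headers. Per the labels' protocols, polyadenylated RNA was selected with oligo(dT) beads, ribosomal RNA was depleted, and paired reads were planned at 50 M read pairs per library. Cufflinks 2.2.1, TopHat2 2.1.1 and Bowtie2 2.2.6 are listed beside FastQC and the build mm10, per the submitters' processing notes, with no role stated, and the annotation and strand setting are not given in the sources used here. The 2379 entries without a gene name took 65.8% to 93.2% of all FPKM in a library and were left out. For the 344 names on several entries, the entry with the highest mean was used.

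A gene was tested if it averaged 1 FPKM or more, which held for 11878 genes. Differences, KO minus WT, were fitted to log2(FPKM + 0.5) by limma 3.58.1 (R 4.3.3) with genotype as the only term, variances moderated along a mean trend and p-values adjusted by Benjamini-Hochberg over all genes (threshold 0.05). A fold change on this scale understates that of low genes. Single values were compared by exact permutation over 70 assignments, and correlations over all 40320 pairings of the libraries. The labels give 8 separate muscle samples and no batch.

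Depth is not stated, so no counting interval is given. A rough figure came from 3969 single-transcript genes, taking the most crowded low value as 1 fragment within preset bounds, which limit it. Promoters and motif shares come from RefSeq (GRCm38.p6), and all 4 genes matched by symbol. Loci were placed with GENCODE M21.

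The members and gene lists were chosen with earlier results of these data known. The genes named are the receptors, Fos and Mss51, the 3 members of each list with the smallest p, the 5 genes most like each receptor, and the neighbours in the order of nuclear receptors. Some list members are not reported here. Other early response genes, Slc2a4 and Ppargc1a were named for their role or library order after their values were seen. Alternatives were other pseudocounts, filters, scalings, variance models, library weights, a replicate block and each library left out.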

Additional observations from a re-analysis of the deposited data

Results flagged for a closer look

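In 3 of 48 groups of 4 libraries examined, the highest library stood apart from the other 3 by more than the 95% critical value of Dixon's test for 4 samples, where chance alone flags about 1 in 20 groups. Mss51 reached 340 FPKM in KO1, against 201 to 216 FPKM in the other KO libraries. Phka1, the regulatory subunit of glycogen phosphorylase kinase, reached 147 FPKM in KO1, against 105 to 110 FPKM in the other KO libraries, and this lies inside the WT range of 141 to 167 FPKM. Ncor1, a corepressor of nuclear receptors, reached 26.8 FPKM in KO4, against 20.6 to 21.5 FPKM in the other KO libraries. None of the 3 receptors, nor Fos, had such a library in either group.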

How the results depend on the processing

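The log2 differences of Nr4a1, Nr4a2, Nr4a3 and Fos stayed below 0 in every alternative that could be fitted, and Nr4a1 and Nr4a2 passed the threshold in none. With a mean of at least 5 FPKM required, Nr4a2 and Nr4a3 were not tested. Under the TPM scaling, Nr4a3 passed at -1.56, Fos passed at -1.28, 123 genes were called (63 higher and 60 lower in KO, against 6 and 0 with FPKM as deposited), 2 early response genes were called (Fos and Egr1), and r of Nr4a1 with Fos was 0.730 (exact permutation p adjusted 0.0499). That scaling moved the median of all genes by -0.19 on the log2 scale. With each library left out in turn, Fos ranged from -1.35 (without WT3, past the threshold) to -0.93, the number of genes called from 4 to 125 (without KO1), and that of early response genes from 0 to 1. Over the same fits r with Fos ranged from 0.085 (without WT1) to 0.652 for Nr4a1, from -0.25 (without WT1) to 0.552 for Nr4a2 and from 0.395 to 0.813 (without WT3, past the threshold) for Nr4a3. Without the 2 libraries farthest from the median of Fos, r with Fos was -0.064 for Nr4a1 and -0.18 for Nr4a2, and centred on group means it was -0.14 for Nr4a3. With each library left out, the log2 ratio of Nr4a3 to Nr4a1 differed by -1.27 to -0.92, with an exact permutation p of 0.0571 without any 1 KO library, and with a pseudocount of 0.5 it differed by -0.85. The causes of these changes were not tested.

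Samples with equal replicate numbers showed no shared deviation (r -0.01, -0.08, -0.08 and 0.01, against -0.16 to 0.13 for unequal numbers). The labels give no pairing, and with 4 libraries per group this check cannot exclude one. With the replicate number as a block, 0 genes were called, Mss51 lost its call (adjusted p = 0.0530, limma), the differences of Nr4a1, Nr4a2, Nr4a3 and Fos were the same with adjusted p of 0.593, 0.826, 0.493 and 0.493, and the ratio of Nr4a3 to Nr4a1 differed by -1.06 (exact permutation p = 0.125). Nr4a2, with the lowest levels, is the receptor whose values rest on the fewest fragments.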
